A study of Mus musculus with 2 samples.

Results

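The megalin-cubilin receptor complex was followed as 5 genes of the 32285 counted, taken by their symbols in the deposited gene list. They are Lrp2 (megalin), Cubn (cubilin), Amn (amnionless), Dab2 (disabled homolog 2, a clathrin adaptor) and Lrpap1 (receptor-associated protein, RAP). All 5 were detected in both libraries and passed the minimum of 100 UMIs (unique molecular identifiers, each marking 1 captured transcript) in proximal tubule cells.

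Megalin and cubilin are giant receptors on the apical membrane of the proximal tubule. They take up albumin, vitamin carriers and other small proteins from the filtrate by clathrin-mediated endocytosis, after which the ligands go to lysosomes and the receptors return to the membrane. Cubilin has no membrane anchor of its own and needs amnionless to reach the surface, RAP chaperones megalin through the secretory pathway, and Dab2 links the tail of megalin to clathrin.

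The data are single cell RNA sequencing (scRNAseq) of 1 control and 1 ischemia library, each from a kidney of a male wildtype C57BL/6J mouse of 19 weeks. The ischemia library came from a kidney clamped on one side for 27 min and harvested 24 h after reperfusion, and the control library from the uninjured contralateral kidney, which is not a sham-operated kidney. The design text speaks of a single mouse, but the labels tie neither kidney to an animal. Of 15110 control and 15257 ischemia barcodes, 12586 and 13116 were kept as cells, and 58 barcodes occurred in both libraries. A single library per condition allows no test, so differences are given as ratios whose 95% intervals cover counting error only and hold no spread between animals.

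Cells were clustered without the 5 genes and without other listed genes of the endocytic pathway, and each cluster was named from marker genes ("PT-like" for proximal tubule). PT-like cells were 3 of 17 clusters, with 3848 control and 2775 ischemia cells and median depths of 14311 and 18312 UMIs. All 15 PT markers were detected there. Their summed level was 25702 CPM (UMIs per 1000000 UMIs of the same cells) in the control library, and 19209 after ischemia, against 747 to 8638 CPM in the other named populations of the 2 libraries. The injury gene Havcr1 (kidney injury molecule 1) had 7.15 CPM in PT-like cells of the control, and 416 CPM after ischemia.

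The start-site regions of the 3 membrane subunits are printed here because Lrp2 and Cubn were the members with the lowest ratios of ischemia to control, whereas Amn, the partner of cubilin, had one of 0.882. Each is 300 bases of GRCm38.p6 from RefSeq on the strand of the gene, 5′ to 3′, with 250 bases before the start. Capitals mark matches to 4 searched motifs.
Lrp2, chr2:69585980-69586279, minus strand: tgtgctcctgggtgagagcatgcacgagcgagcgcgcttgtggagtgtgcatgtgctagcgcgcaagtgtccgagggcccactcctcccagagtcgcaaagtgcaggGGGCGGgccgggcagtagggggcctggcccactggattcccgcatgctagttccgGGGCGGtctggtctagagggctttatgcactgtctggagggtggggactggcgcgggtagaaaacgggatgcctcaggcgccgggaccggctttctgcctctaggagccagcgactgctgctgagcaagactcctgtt
Cubn, chr2:13491827-13492126, minus strand: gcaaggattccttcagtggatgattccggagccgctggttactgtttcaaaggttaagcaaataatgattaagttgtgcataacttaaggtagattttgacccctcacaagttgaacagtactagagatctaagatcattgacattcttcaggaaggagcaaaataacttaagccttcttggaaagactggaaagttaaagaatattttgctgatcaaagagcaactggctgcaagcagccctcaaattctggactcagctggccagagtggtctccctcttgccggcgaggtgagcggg
Amn, chr12:111270846-111271145, plus strand: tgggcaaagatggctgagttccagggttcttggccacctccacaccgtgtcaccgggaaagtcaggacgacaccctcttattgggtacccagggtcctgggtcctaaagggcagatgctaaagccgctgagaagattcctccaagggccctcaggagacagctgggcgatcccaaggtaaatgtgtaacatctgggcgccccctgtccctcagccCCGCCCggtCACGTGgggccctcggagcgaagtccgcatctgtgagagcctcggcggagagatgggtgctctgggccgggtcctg
The motifs, searched on both strands, were the E-box CACGTG, the TATA box TATAAA, the GC box GGGCGG and the nuclear receptor half-site AGGTCA. The Lrp2 region held 2 GC boxes, starting 143 and 88 bases before the start site, and the Amn region held 1 GC box and 1 E-box. None of the 4 was found in the Cubn region. Of the members not printed, the Lrpap1 region held 5 GC boxes, and the regions of 2 Dab2 starts held none of the 4 motifs. The Cubn region, placed by the RefSeq start, lies wholly outside the gene span given below, which is from GENCODE M21. Of 32851 such mouse regions, 35.7% held a GC box, 7.15% an E-box, 13.6% a TATA box and 16.3% the nuclear receptor half-site. The Cubn region had 44.3% G or C, less than the 65.0% of Lrp2 and the 62.3% of Amn. These matches describe letters only and say nothing of binding.

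Lrp2, the transmembrane receptor of the pair, measured 1348 CPM in control PT-like cells, and 629 CPM after ischemia. The ratio of 0.467 (0.461 to 0.472) lay at percentile 2.48 of the 12323 genes measured in these cells. The UMI counts behind it were 96506 and 42837. Lrp2 (ENSMUSG00000027070) spans chr2:69424340-69586065 on the minus strand of GRCm38, with 79 exons in its longest annotated transcript.

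Cubn, the receptor for intrinsic factor with vitamin B12 in the gut and for albumin in the kidney, measured 304 CPM in control PT-like cells, and 163 CPM after ischemia. Its ratio was 0.538 (0.525 to 0.550), at percentile 3.95. The gene (ENSMUSG00000026726, chr2:13276338-13491813, minus strand, 67 exons) is overlapped on the other strand by the non-coding Gm13270, which was at 3.13 and 2.13 CPM.

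The partners of the receptors had ratios nearer to 1. Amn had 181 CPM in PT-like cells of the control, and 159 CPM after ischemia, a ratio of 0.882 (0.859 to 0.905). Dab2 was at 1041 and 965 CPM, a ratio of 0.927 (0.917 to 0.936). Lrpap1 lay between the receptors and these, at 270 and 200 CPM, with a ratio of 0.740 (0.724 to 0.756). Amn lies at chr12:111271095-111276426 (plus strand, 12 exons), Dab2 at chr15:6299788-6440712 (plus strand, 15 exons) and Lrpap1 at chr5:35091501-35105766 (minus strand, 8 exons).

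All 5 ratios were below 1, and Lrp2 was the 1 of 5 that was lower by more than 2-fold, where 3.13% of all genes measured in PT-like cells were lower and 5.85% higher by more than 2-fold. The median ratio over the 5 was 0.740, against 1.08 over all 12323 genes, of which 38.2% were below 1. Relative to that median, the ratios were 0.431 for Lrp2, 0.496 for Cubn, 0.683 for Lrpap1, 0.813 for Amn and 0.855 for Dab2. Lrp2 stayed past 2-fold under all 10 alternatives of cell filter, clustering and scaling, from 0.429 to 0.485, while Cubn, from 0.501 to 0.602, did not reach it under any. These ratios pool all PT-like cells. Within the sub-clusters given below, the median Lrp2 ratio was 0.519, and 0.482 at sub-clustering resolution 0.6. A pair of transporters of the same cells gave values close to that of Lrp2. Slc34a1, the apical sodium-phosphate cotransporter, had a ratio of 0.488 (2678 and 1308 CPM), and Slc5a12, a lactate transporter of the early tubule, had 0.471 (915 and 431 CPM). Of the 15 PT markers, 14 had a ratio below 1 and 6 were lower by more than 2-fold, with a median ratio of 0.527. They ranged from 0.243 for Slc7a13 to 1.65 for Slc13a1 (1554 and 2572 CPM).

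**Figure D1:**
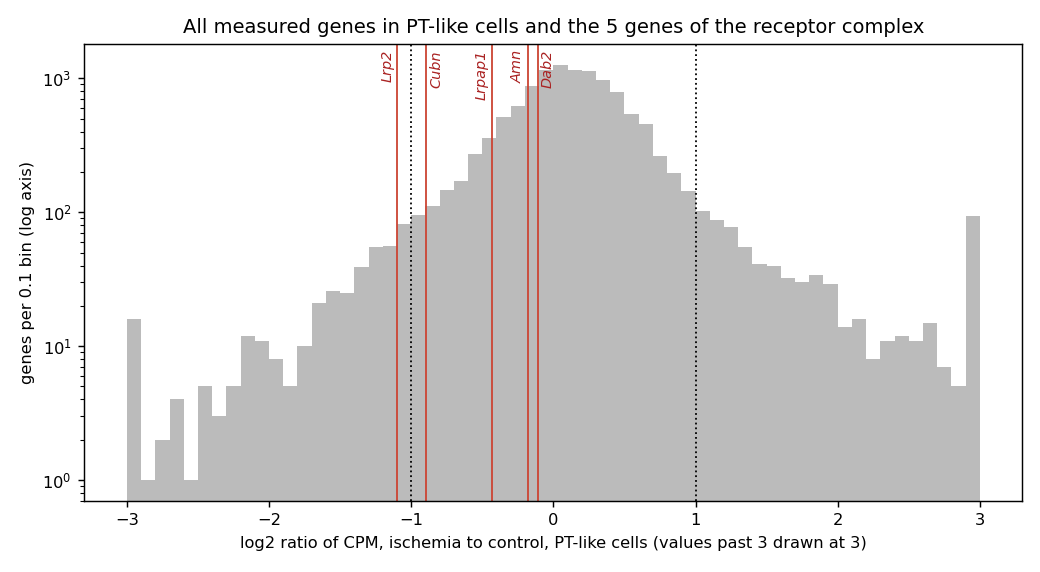
Histogram of the log2 ratio of ischemia to control CPM for 12323 genes in PT-like cells (x axis, bins of 0.1), with the number of genes on a log y axis. Red lines mark the 5 genes and dotted lines 2-fold: Lrp2 is left of the 2-fold line, Cubn just right of it, and Lrpap1, Amn and Dab2 lie nearer to 0.

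Other features of the libraries moved with these ratios. In PT-like cells, mitochondrial transcripts were 26.6% of control and 22.5% of ischemia UMIs, and the summed markers of injured PT were at 53.9 and 567 CPM. Markers of other cell types were low in both libraries, at 3.35 and 9.33 CPM for macrophages, 9.09 and 11.9 CPM for endothelial cells and 12.5 and 15.1 CPM for podocytes. Their part in the ratios was not tested. With mitochondrial UMIs left out of the totals, Lrp2 was at a ratio of 0.443 and Dab2 at 0.878.

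Cell by cell, the quartiles of Lrp2 were lower in the ischemia library and more cells had no UMI of it. After each PT-like cell was thinned at random to 5000 UMIs, which left out 728 control and 614 ischemia cells, the median cell of the control had 6 Lrp2 UMIs (quartiles 4 and 9), against 3 after ischemia (quartiles 1 and 5). The share of cells with no Lrp2 UMI was 2.66% and 14.7%. For Cubn the median was 1 UMI in both, and the share without one was 30.2% and 48.7%. For Dab2 the median was 4 UMIs in both, with 7.31% and 5.18% of cells at 0, and for Amn the shares at 0 were 49.1% and 48.9%.

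At this depth both receptors were seen together in 69.1% of 3120 control cells, against 47.2% of 2161 ischemia cells. Cells with Lrp2 but no Cubn UMI were 28.3% and 38.1%, and cells with neither were 1.92% and 10.6%. Dab2 without Lrp2 made up 2.37% of control cells, against 13.4% after ischemia. For cubilin and its partner, cells with Amn but no Cubn UMI were 14.6% and 24.4%. These are detection shares at a fixed depth, and a cell at 0 may still express the gene.

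To set the shares against free RNA in the droplets, cells were also thinned to 1000 UMIs and compared with TAL-like cells (thick ascending limb), whose median depths were 20003 and 24772 UMIs before thinning. Lrp2 appeared in 68.5% of PT-like cells of the control, and in 43.4% after ischemia, against 9.59% and 4.32% of TAL-like cells. Cubn was found in 25.3% and 15.4%, against 2.65% and 0.206%. Dab2 was found in 55.3% and 56.7%, against 5.92% and 6.79%. Amn was found in 14.0% and 13.0%, against 1.22% and 0.617%, and Lrpap1 in 21.2% and 17.0%, against 5.51% and 5.35%. Without thinning the Lrp2 shares were 96.6% and 89.9%, against 63.7% and 37.9% of TAL-like cells. Lrp2 in the control was at 112 CPM in TAL-like cells and at 453 CPM in T cell-like cells. TAL-like cells may thus give a low estimate of free RNA in shallower cells, which was not tested.

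PT-like cells held most of the transcripts of each gene. They carried 86.9% of control and 87.2% of ischemia Lrp2 UMIs, 88.7% and 88.5% of Cubn UMIs and 89.4% and 89.0% of Amn UMIs, while they held 57.4% and 52.9% of all UMIs. For Dab2 the shares were 87.9% and 84.2%, and for Lrpap1 79.9% and 73.8%. Much of the rest of Lrp2, 5.97% and 6.22%, lay in cluster 0, a group of 10550 shallow cells that met no naming rule.

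**Figure D2:**
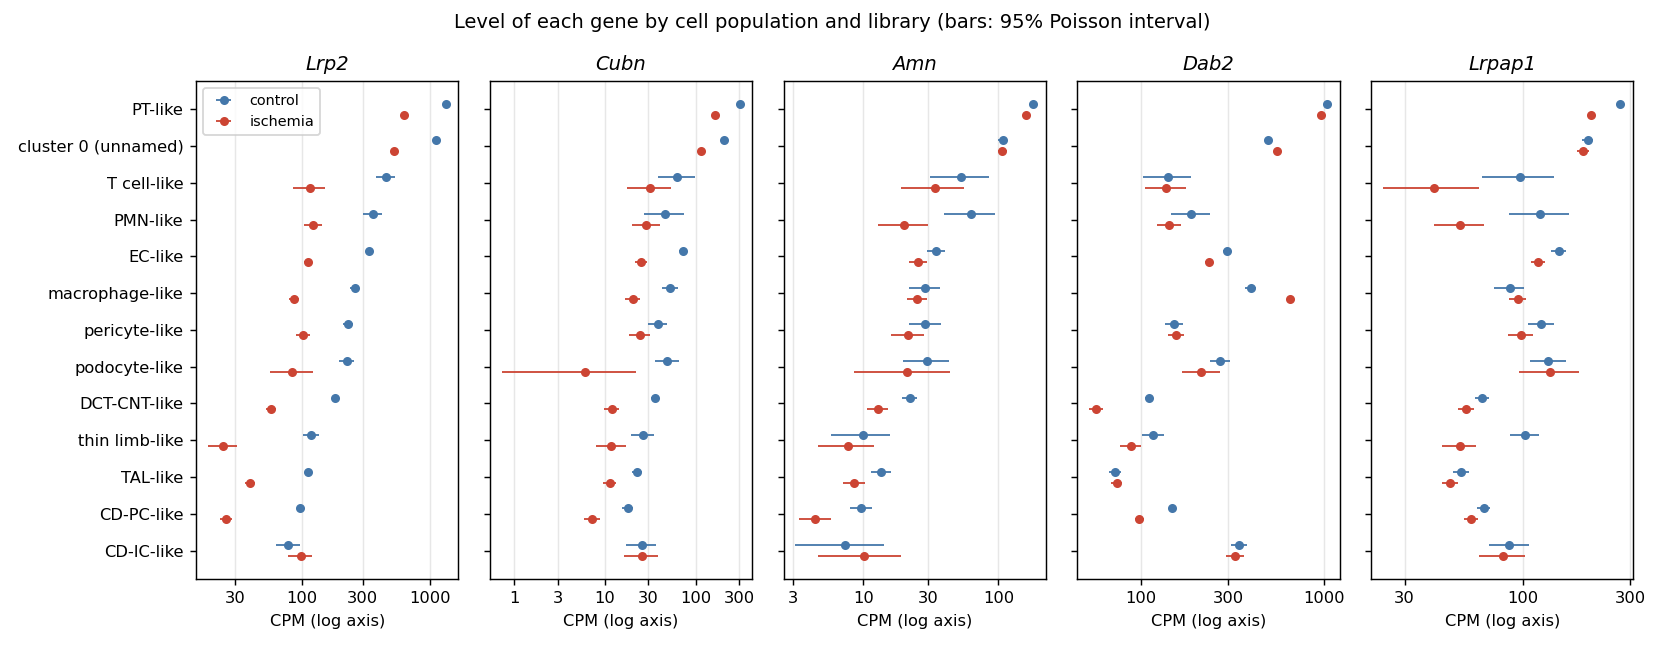
CPM of each gene on a log x axis in each cell population (y axis) for the control (blue) and ischemia (red) library, with exact 95% Poisson intervals as bars. The panels for Lrp2 and Cubn have PT-like cells and cluster 0 far above the others, and these are also highest for Amn. Outside them, Dab2 is highest in macrophage-like, CD-IC-like, EC-like and podocyte-like cells.

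Outside the proximal tubule, the low levels of Lrp2 went with those of the PT markers. Per 100 PT-marker UMIs, control PT-like cells held 5.24 Lrp2 UMIs, and the other control populations held 4.95 to 6.54, except PMN-like cells (neutrophils) with 8.40. In the ischemia library PT-like cells held 3.28 and the others 2.59 to 4.10, except CD-IC-like cells (collecting duct intercalated cells) with 5.64. After PT-like cells and cluster 0, Lrp2 in the control was highest in T cell-like cells at 453 CPM, with an interval that overlapped that of PMN-like cells, and CD-IC-like cells were last at 78.1 CPM. Cubn and Amn were also highest in PT-like cells and then in cluster 0. Below these, Cubn in the control was led by EC-like cells at 71.7 CPM and Amn by PMN-like cells at 62.6 CPM, each with an interval that overlapped that of T cell-like cells, the next in order.

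Dab2 departed from that pattern. Macrophages and other phagocytic or endothelial cells are known to use this adaptor without megalin. Per Lrp2 UMI, control PT-like cells held 0.773 Dab2 UMIs, against 1.53 in macrophage-like, 1.20 in podocyte-like, 1.52 in CD-PC-like (collecting duct principal cells) and 4.38 in CD-IC-like cells. EC-like cells were at 0.870, nearer to PT-like cells, and after ischemia at 2.09, against 1.53 in PT-like cells. In the control, TAL-like cells were at 0.645 and T cell-like cells at 0.310. The part of free RNA in the Dab2 levels was not tested.

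In macrophage-like cells Dab2 was at 398 CPM (371 to 427) in 329 control cells and 656 CPM (635 to 678) in 621 ischemia cells. The ratio of 1.65 (1.53 to 1.78) was opposite in direction to the 0.927 pooled over PT-like cells. That value was 0.984 with the same sub-cluster mix in both libraries, so it was close to 1. Lrp2 in the same macrophage-like cells went from 260 to 86.9 CPM. These cells were then split by UMIs of the 3 C1q genes, complement genes of resident macrophages, after thinning to 1000 UMIs per cell, with the levels taken from all UMIs of those cells. Cells with 3 or more C1q UMIs had 461 CPM without ischemia, and 898 CPM with it, and those with fewer had 302 and 467 CPM. Dab2 was higher in the ischemia library in both classes. Igkc, an immunoglobulin gene of B cells, was among the leading genes of the cluster. At clustering resolution 0.6, where 289 control and 581 ischemia cells were macrophage-like, Dab2 was at 408 and 674 CPM.

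In EC-like cells (endothelial), where Lrp2 was at 338 and 113 CPM, the Dab2 level was 295 CPM without ischemia, and 236 CPM with it. The larger of 2 EC-like clusters had 296 and 235 CPM and the smaller 285 and 256 CPM. After removal of the 8% most doublet-like cells by score, the EC-like values were 195 and 199 CPM, so that the control value was no longer the higher. That removal left 784 of 904 control and 951 of 1039 ischemia cells. The scores came from a tool that called 0 doublets in either library, and whether they mark doublets was not tested. Podocyte-like cells had 271 (239 to 306) and 214 (167 to 270) CPM, in 94 and 64 cells. CD-IC-like cells had 343 (309 to 379) and 327 (291 to 367) CPM, with Lrp2 at 78.1 and 98.3 CPM, in only 58 and 45 cells. This cluster was led by Slc26a4. At clustering resolution 0.6 a second CD-IC-like cluster, of 98 and 88 cells, was led by Aqp6. It had 339 and 275 CPM of Dab2, with Lrp2 at 169 and 46.5 CPM.

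Lrpap1 had the lowest share of its UMIs in PT-like cells among the 5. Below PT-like cells and cluster 0, it ranged in the control from 53.5 CPM in TAL-like to 144 CPM in EC-like cells. RAP serves the whole LDL receptor family in the endoplasmic reticulum of many cell types. In podocyte-like cells it was at 130 and 133 CPM, and in CD-PC-like cells at 67.2 and 59.0 CPM.

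PT-like cells were clustered again into 8 sub-clusters, again without these genes. Only 3 met the naming rule, and the others are given by number and leading genes. Sub-cluster 2 was early PT-like, sub-clusters 3 and 7 were late PT-like, and sub-cluster 5 (22 control and 215 ischemia cells) was led by Lgals3, S100a6, Vim and Sox4. The marker list that scored best in sub-cluster 5 was injured PT, although the naming rule was not met. Sub-cluster 7 had only 16 and 17 cells and is left out of the counts.

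Lrp2 was lower in the ischemia library in 7 of 7 sub-clusters, with ratios from 0.397 in sub-cluster 5 to 0.661 in early PT-like sub-cluster 2. The median was 0.519, and sub-clusters 0, 2, 4 and 6 did not reach 2-fold. In the early PT-like sub-cluster Lrp2 was at 1411 and 933 CPM. In late PT-like sub-cluster 3 it was at 1179 and 505 CPM, a ratio of 0.429 (0.410 to 0.448), whose interval did not overlap the 0.641 to 0.683 of the early one. These intervals cover counting error only. At sub-clustering resolution 0.6 the early PT-like sub-cluster had an Lrp2 ratio of 0.729 (501 and 322 cells). An unnamed one of 194 and 180 cells, led like sub-cluster 2 by Gm16311, Wdr17 and Fgfr2, had 0.422, and its best-scoring marker list was injured PT. The late PT-like one there had only 17 and 18 cells. An unnamed one of 583 and 278 cells, led like sub-cluster 3 by Kap, Ly6a, Acsm3 and Inmt, had an Lrp2 ratio of 0.514. Another, of 269 and 219 cells, shared Hspb1 and S100a6 with sub-cluster 3 and had 0.450. Its best-scoring marker list was injured PT. The 0.661 of sub-cluster 2 and the 0.429 of sub-cluster 3 may thus pool unlike cells. Unnamed sub-cluster 4 had the highest summed early PT markers in the control, 6889 CPM, and an Lrp2 ratio of 0.570. In sub-cluster 3 the early and late PT markers were at 1504 and 1603 CPM in the control. In sub-cluster 1, led by Cd36, Kap and Slc22a6, Lrp2 was at 1553 and 636 CPM.

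Cubn was also below 1 in 7 of 7 sub-clusters, from 0.492 to 0.775. Its level was 432 and 312 CPM in the early PT-like sub-cluster, against 176 and 93.1 CPM in late PT-like sub-cluster 3. In this named pair it was thus higher in the early one in both libraries. In the control, unnamed sub-cluster 1, whose best-scoring list was late PT, had 304 CPM. Its early and late PT markers were at 3020 and 1464 CPM there. Unnamed sub-clusters 0, 4 and 6, whose best-scoring list was early PT, had 191, 322 and 429 CPM. Control median depths were 6577, 31218, 8207 and 37586 UMIs in sub-clusters 0, 1, 3 and 4, whose part was not tested. Lrpap1 was below 1 in 7 of 7, from 0.599 to 0.878, and Amn in 6 of 7, from 0.791 to 1.01.

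Dab2 differed from the receptors within sub-clusters. Its ratio was below 1 in 3 of 7, with a median of 1.002 and a range from 0.935 to 1.27. At sub-clustering resolution 0.6 it was below 1 in 7 of 11, with a median of 0.959. It was at 395 and 468 CPM in late PT-like sub-cluster 3 and at 1775 and 1778 CPM in early PT-like sub-cluster 2. In the control, unnamed sub-cluster 1, whose best-scoring list was late PT, had 1040 CPM. Unnamed sub-clusters 0, 4 and 6, whose best-scoring list was early PT, had 481, 1108 and 1408 CPM. At resolution 0.6 the early PT-like sub-cluster had a Dab2 ratio of 1.09, and the unnamed one led by Gm16311, Wdr17 and Fgfr2 had 0.766. With the control library weighted to the sub-cluster mix of the ischemia library, the Dab2 ratio over all PT-like cells was 0.984, while that of Lrp2 was 0.485 and that of Cubn 0.580. Gm16311, annotated on the other strand of Dab2, was among the leading genes of sub-cluster 2, at 43.2 and 105.3 CPM there, against 10.1 and 13.3 CPM in all PT-like cells. Its part in the Dab2 level of that sub-cluster was not tested.

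**Figure D3:**
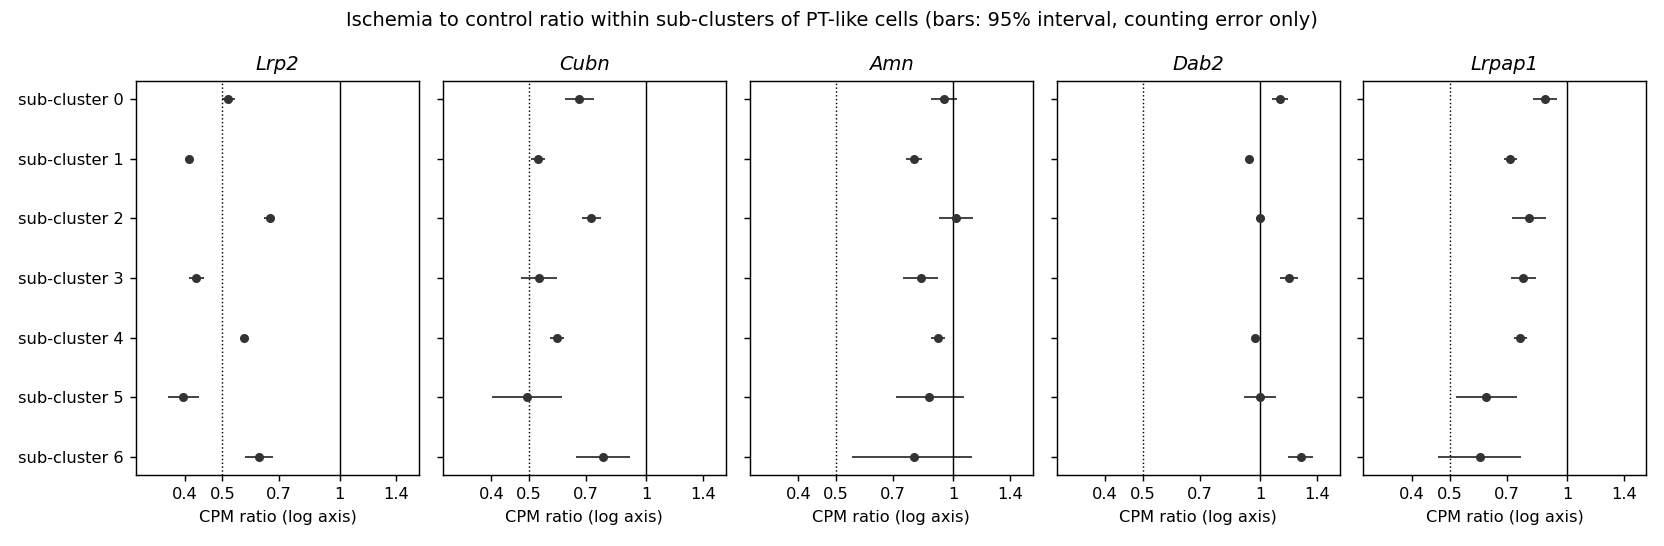
Ratio of ischemia to control CPM (log x axis, bars for the 95% interval of counting error) of each gene in the 7 sub-clusters of PT-like cells with at least 20 cells in each library. Lrp2, Cubn and Lrpap1 are left of 1 in every sub-cluster shown, whereas Dab2 lies on both sides of 1.

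Within the ischemia library the 5 genes were also compared between PT-like cells with different numbers of Havcr1 UMIs, at 5000 UMIs per cell. These classes are ranges of 1 count, not cell types, and 585 of the 2161 cells lay in the middle range of 1 or 2 UMIs. Havcr1 was also found in the other named populations of the ischemia library, from 20.1 CPM in CD-IC-like to 298 CPM in thin limb-like cells. In T cell-like cells it was at 111 CPM. The part of free RNA in the classes was not tested. Lrp2 was at 728 CPM in the 1094 cells without a Havcr1 UMI, 635 CPM in the middle class and 482 CPM in the 482 cells with 3 or more. Cubn was at 207, 173 and 131 CPM in the same order, Amn at 174, 158 and 120, Dab2 at 1042, 924 and 808, and Lrpap1 at 220, 185 and 146.

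Pooled over PT-like cells of the ischemia library, all 5 were lowest where Havcr1 was highest, and so was Slc34a1, at 1668, 1202 and 760 CPM. The median depths before thinning were 27110, 27246 and 36768 UMIs, and mitochondrial UMIs were 24.2%, 22.2% and 21.0%, whose part was not tested. Control cells without a Havcr1 UMI, 3059 in number, had 1344 CPM of Lrp2, 296 CPM of Cubn and 249.7 CPM of Lrpap1, above the ischemia cells without one, whereas Dab2 was at 998 CPM there, below them, and Amn at 163 CPM, with overlapping intervals.

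The gradient of Lrp2 was not found in each sub-cluster. In sub-cluster 1 it was at 844, 721 and 483 CPM over the 3 classes. Sub-cluster 0 had 622, 631 and 457 CPM of Lrp2, and sub-cluster 2 had 919, 900 and 613 CPM. In sub-cluster 5 it was at 346, 368 and 294 CPM, with overlapping intervals. Sub-cluster 4 had 784 CPM without a Havcr1 UMI and 605 CPM in the middle class, and under 20 cells above it. In late PT-like sub-cluster 3 it was at 548, 487 and 567 CPM, with overlapping intervals. Cubn (111, 103 and 106 CPM), Amn (101, 111 and 125) and Dab2 (473, 438 and 508) also had overlapping intervals there, whereas Lrpap1 was at 287, 200 and 175 CPM. Dab2 in sub-cluster 0 was at 554, 508 and 611 CPM, and in sub-cluster 1 at 1242, 1083 and 839 CPM. Sub-cluster 1 held 162 of the 1094 cells without a Havcr1 UMI and 218 of the 482 with 3 or more. The part of this mix was not tested.

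**Figure D4:**
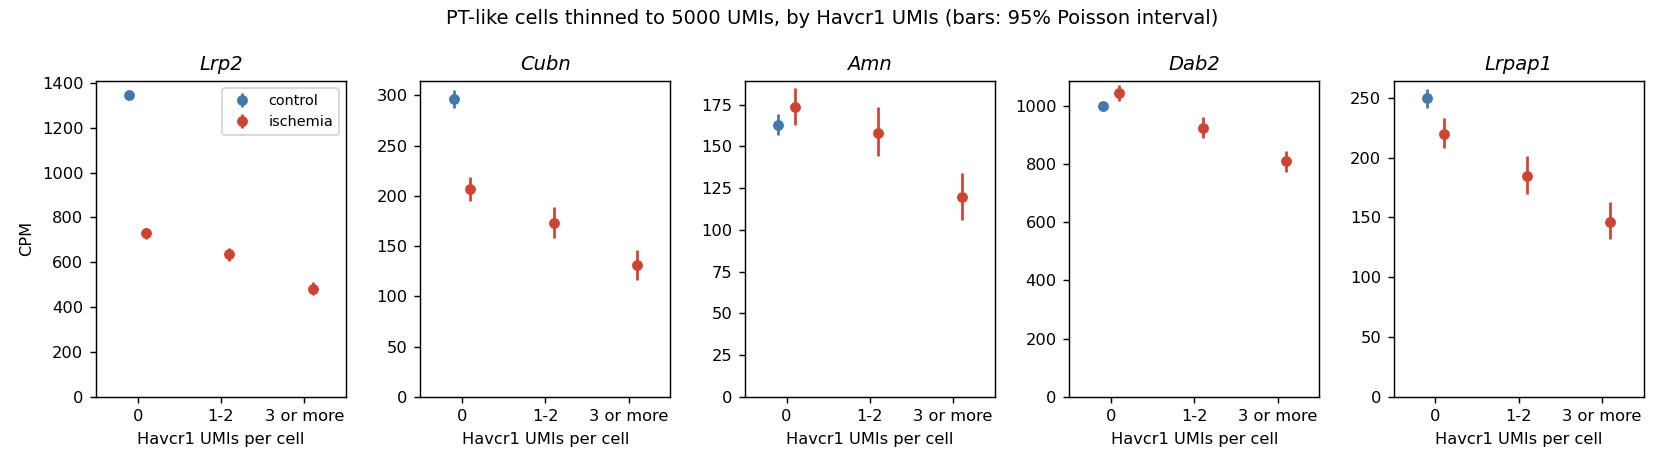
CPM of each gene (y axis from 0, bars for exact 95% Poisson intervals) in PT-like cells thinned to 5000 UMIs, by the number of Havcr1 UMIs per cell, for the ischemia library (red) and for control cells without a Havcr1 UMI (blue). In the ischemia library the level of each gene is lowest in cells with 3 or more Havcr1 UMIs, and for Lrp2, Cubn and Lrpap1 the class without one also lies below the control.

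The other genes of the endocytic route mostly kept ratios near that of all genes. Of 88 listed genes 86 were measured, and 1 was lower and 4 were higher by more than 2-fold, with a median ratio of 1.05. Over all genes, 3.13% were lower and 5.85% higher by more than 2-fold, 8.98% in either direction.

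The clathrin coat and its adaptors had 0 of 16 genes past 2-fold and a median of 1.11. Their lowest ratios were those of Epn1 (an epsin, 0.746) and Myo6 (the myosin that moves endocytic vesicles, 0.793), and the highest those of Ap2m1 (a subunit of the AP-2 adaptor, 1.47) and Clta (clathrin light chain A, 1.50). Endosome traffic also had 0 of 16 past 2-fold, with a median of 1.07, from Rab11fip3 at 0.794 and Appl2 at 0.839 to the recycling GTPases Rab11b at 1.41 and Rab11a at 1.49.

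Endosome acidification and inositol lipids had 0 of 16 past 2-fold and a median of 1.02. Slc9a3, the apical sodium-proton exchanger, was lowest at 0.563 (67.4 and 38.0 CPM), followed by Clcn3 at 0.735. Clcn5, the chloride-proton exchanger whose loss causes low molecular weight proteinuria, was at 1.14, and the proton pump subunit Atp6v0a1 at 1.15.

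Lysosomal genes had 2 of 14 higher by more than 2-fold, where 5.85% of all genes were, and a median of 1.19. Of the 14, 1 had a ratio below 1, against 38.2% of all genes. The 2 past 2-fold were cathepsins, the proteases that degrade endocytosed protein: Ctsb went from 341 to 839 CPM (ratio 2.46) and Ctsl from 587 to 1326 CPM (2.26). Lamp2 was lowest at 0.947, and Tfeb, a regulator of lysosomal genes, was at 1.05.

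Genes that handle the cargo had 1 of 12 lower and 1 of 12 higher by more than 2-fold, with a median of 0.978. Cyp27b1, which activates the vitamin D that megalin brings in, was at 2.71 and 0.969 CPM (0.358, from 194 and 66 UMIs). The vitamin D receptor Vdr was at 0.656 and Cyp2r1 at 1.56. Rbp4, a plasma carrier of retinol, had 0.126 CPM (9 UMIs) without ischemia, and 6.70 CPM (456 UMIs) with it, a ratio of 53.3 (27.8 to 117) at low levels.

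Among other LDL receptor family members and scavenger receptors, 1 of 12 measured was higher by more than 2-fold and the median was 0.967. Lrp8 went from 0.391 to 3.63 CPM (28 and 247 UMIs, ratio 9.28). Lrp4 was at 0.617, Lrp12 at 0.657 and Scarb2 at 1.64. Lrp1 and Scarb1 were under the UMI minimum.

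**Figure D5:**
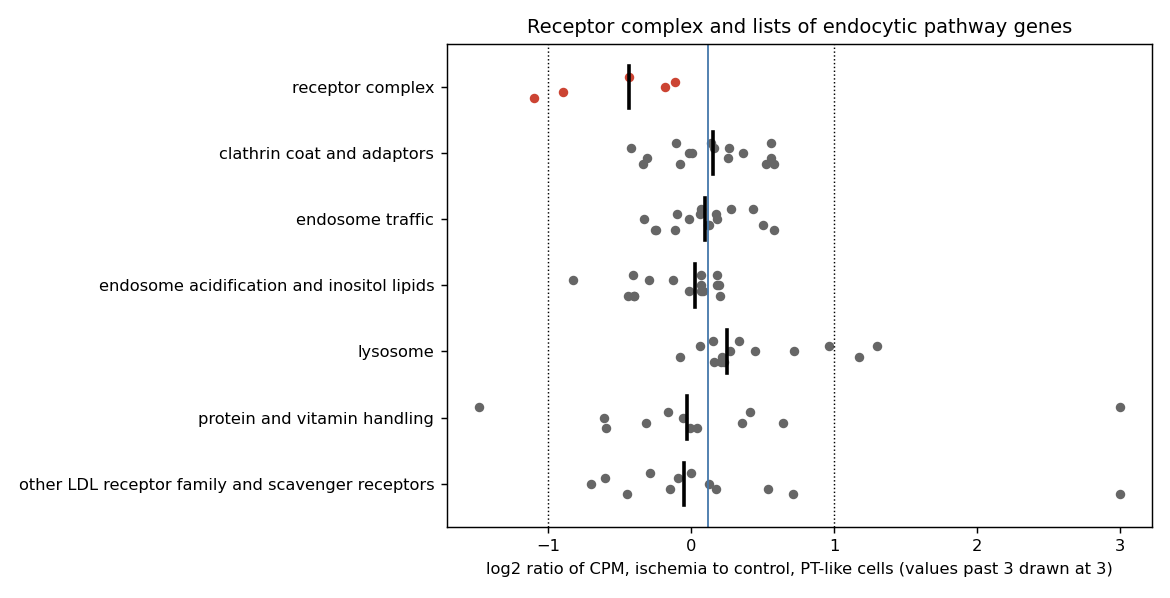
Log2 ratio of ischemia to control CPM in PT-like cells (x axis) for each measured gene of the receptor complex (red) and of the 6 pathway lists (grey, y axis), with list medians as black bars, 2-fold as dotted lines and the median of all genes as a blue line. The median of the receptor complex is 0.740, and those of the other lists lie between 0.967 and 1.19.

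Over 22 combinations of population and library with at least 50 cells, the pattern of Lrp2 was most like that of Slc34a1 (Pearson r of log2 CPM with a pseudocount of 10, 0.990), followed by Akr1c21 and Ugt3a2, among 12479 genes. For Cubn the most alike were Acmsd (0.974), Hykk and Pecr, and for Amn Slc17a1 (0.989), Keg1 and Tkfc. For Dab2 they were Uap1l1 (0.912), Snx8 and Tmem106a, and for Lrpap1 Cmbl (0.896), Tcea3 and Mfsd1. Within the complex, r with Lrp2 was 0.945 for Cubn, 0.902 for Amn, 0.754 for Lrpap1 and 0.669 for Dab2. The points share libraries and free RNA, so these values are descriptions only.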

How the data were processed

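Single cell 3′ libraries of 1 control and 1 ischemic kidney were analysed. The authors deposited raw UMI counts per gene and barcode, made per the labels with Cell Ranger 7.0.0 on mm10 (GRCm38) and not normalized. Whether intronic reads were counted is not given in the sources used here. The libraries held 142686238 and 142959737 UMIs.

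Barcodes with fewer than 200 genes, with UMIs outside 500 to 150000 or with over 55% mitochondrial UMIs were removed. The rest were clustered with Seurat 5.3.0 in R 4.3.3 (scale factor 10000, 2000 variable genes, integration of the 2 libraries, 30 principal components, resolution 0.3, seed 42). The 5 genes and the pathway lists were left out of the variable genes. Each cluster was scored against marker lists by its log2 CPM (pseudocount 10) over that of the median cluster, averaged over the list, and named after the best list if at least 3 markers had 10 or more UMIs and its 10 leading genes with 50 or more UMIs held at least 1 marker of that list and fewer of any other. PT-like cells were clustered again in the same way.

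CPM are summed UMIs of a gene per 1000000 UMIs of the same cells. The 95% intervals (exact Poisson for CPM, Clopper-Pearson for shares, conditional binomial for ratios) cover counting error only. With 1 library per group no test was run. Genes with at least 100 UMIs in PT-like cells counted as measured, and 2-fold was the rule of size. The tools were pandas 2.3.3, scipy 1.17.1, matplotlib 3.10.9 and numpy 2.4.6 under Python 3.11.15. The calculation of the intervals was checked on simulated counts, where 95.2% of 12323 held the true ratio. Those counts were drawn from the same Poisson model without spread between cells. They therefore cannot show how the intervals hold for the real data.

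Scrublet (scanpy 1.11.5) called 0 doublets in either library and so did not work here. Doublets were kept, and as an alternative the 8% of cells with the highest scores were left out. Gene positions are from GENCODE M21 and promoters from RefSeq, both GRCm38. The 5 genes, the lists and the tables were chosen with earlier results of these data known. Genes named with values were the 5 members, Havcr1, Lcn2, Slc34a1, Slc5a12, the 2 highest and 2 lowest of each list and the 3 most alike each member. Gm16311, Gm13270 and sub-cluster leading genes were named after their values were seen. Lcn2 was at 6.36 and 42.5 CPM in PT-like cells. A seventh list, fixed with the others and left out of the variable genes with them, is not reported here. The other experiments of the study were not analysed here.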

Additional observations from a re-analysis of the deposited data

Results flagged for a closer look

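Dab2 had opposite directions in different populations. Its ratio of ischemia to control CPM was 1.65 in macrophage-like cells and 1.12 (1.07 to 1.18) in cluster 0, against 0.927 in PT-like cells. The last value pools PT-like clusters 1, 2 and 5, where the ratio was 0.828, 1.14 (1.10 to 1.19) and 0.985. With the same sub-cluster mix in both libraries it was 0.984. A ratio above 1 was thus not particular to cluster 0. With 1 library per condition the difference between these ratios was not tested. Beside these values, Havcr1 in cluster 0 went from 59 to 2682 UMIs, and the share of Dab2 UMIs held by macrophage-like cells was 0.933% without ischemia and 4.69% with it. Macrophage-like cells also held more of all UMIs, 1.59% without ischemia and 4.33% with it.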

How the results depend on the processing

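The 5 ratios in PT-like cells stayed below 1 under all alternatives. For Lrp2, Cubn, Amn, Dab2 and Lrpap1 they were 0.429, 0.501, 0.845, 0.886 and 0.670 at no more than 25% mitochondrial UMIs. With mitochondrial UMIs left out of the totals they were 0.443, 0.510, 0.836, 0.878 and 0.701, and as a mean of the CPM of single cells 0.485, 0.602, 0.917, 0.989 and 0.793. Among cells with 20000 or more UMIs, an alternative added after the data were seen, they were 0.453, 0.514, 0.843, 0.905 and 0.705. With the same sub-cluster mix in both libraries, also added later, Lrp2 was at 0.485, Cubn at 0.580 and Dab2 at 0.984. Without integration Lrp2 was at 0.457, Cubn at 0.514, Dab2 at 0.878 and Lrpap1 at 0.715, but there PT-like cells fell into different clusters by library (1988 control and 232 ischemia cells in one, 145 and 1477 in the other), so these ratios largely compare one cluster with another. With a gate on PT markers Dab2 was at 0.941 and Lrpap1 at 0.757. The median Dab2 ratio over sub-clusters turned from 1.002 to 0.959 at resolution 0.6.

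Without integration the shares of UMIs in PT-like cells (control, ischemia) were lower, as fewer clusters with PT markers met the naming rule: Lrp2 71.6% and 74.9%, Cubn 77.5% and 78.9%, Amn 72.0% and 74.8%, Dab2 80.1% and 77.4%, Lrpap1 63.7% and 60.6%. At resolution 0.6 they were 87.6% and 87.6% for Lrp2, 88.4% and 84.5% for Dab2, and in the control 89.3% for Cubn, 89.9% for Amn and 80.4% for Lrpap1. Shares of PT-like cells with a UMI moved with depth. Thinned to 3000 UMIs they were 93.1% and 74.9% for Lrp2, 53.5% and 36.6% for Cubn, 37.2% and 33.4% for Amn, 85.3% and 87.0% for Dab2 and 48.3% and 39.5% for Lrpap1. Not thinned they were 96.6% and 89.9%, 81.2% and 74.1%, 69.2% and 71.2%, 93.9% and 94.6%, and 78.6% and 76.5%, so that Amn changed its order. Without the highest doublet scores Dab2 was at 367 CPM in control macrophage-like cells and 195 and 199 CPM in EC-like cells. Leaving out cells with 3 or more UMIs of another type's markers left 0 to 2 cells per population and gave no value. Of the values under alternatives, 69 moved by more than their counting error, 1 turned its direction and 55 did neither, gene counts within 1.5 times the main count included. No paired analysis was possible because each condition has 1 library, and none could be left out.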

Other observations

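Cluster 0 held 4641 control and 5909 ischemia cells with median depths of 897 and 798 UMIs. It met no naming rule because none of its 10 leading genes was a marker, although its summed PT markers were at 20502 and 17829 CPM, near those of PT-like cells. The leading genes included the hemoglobin genes Hbb-bs, Hba-a1, Hba-a2 and Hbb-bt. Lcn2 was at 75.4 and 738 CPM, against 6.36 and 42.5 CPM in PT-like cells. Per 100 PT-marker UMIs cluster 0 held 5.42 and 2.96 Lrp2 UMIs, against 5.24 and 3.28 in PT-like cells. Whether its barcodes hold PT cells, free RNA or a mix was not tested. In cluster 0 the members of the receptor complex gave ratios of 0.474 for Lrp2 (1112 and 527 CPM), 0.551 for Cubn (206 and 114 CPM), 0.992 for Amn (108 and 107 CPM), 0.951 for Lrpap1 (194 and 185 CPM) and 1.12 for Dab2 (493 and 554 CPM). Mitochondrial UMIs were 20.0% and 12.7% there.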
